A study of Mus musculus with 9 samples.

Results

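The 34 genes described here are secretory and epithelial genes of the oviduct, and their RNA was measured in samples labelled as mouse corona radiata, the layer of granulosa-derived cells around the oocyte. The genes were taken by symbol from a list that was chosen with earlier results of these data known. All 34 were found among the 54838 genes of the deposited matrix. Adult mice had been given PMSG and hCG, which drive follicle growth and ovulation. The treatment label also carries the term J4, which it does not explain. RNA sequencing covered 3 genotypes with 3 libraries each. These were wild type (WT), mice lacking both liver X receptors (LXR DKO, a double knockout), and the same knockout with the transgene TG-AMH-LXRb, called transgenic here. Neither the promoter and coding part of the transgene nor the deleted parts of the receptor genes are given in the labels. The labels do not tell whether each library is a separate animal, so the p-values rest on a spread between libraries that could be technical.

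Secretory cells of the oviduct lining are non-ciliated cells that release oviductal glycoprotein (Ovgp1) and antimicrobial proteins into the fluid around the ovulated oocyte. They share with other simple epithelia a set of keratins, tight junction claudins, E-cadherin and transcription factors that keep the epithelial state. After ovulation the cumulus and oocyte are carried into the oviduct, where they lie against this lining. Granulosa-derived cells make other hormones and matrix proteins and are not known for Ovgp1.

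Values are reads per kilobase of gene and library size (RPKM), so levels can be compared between genes. Library sizes behind the RPKM scale ran from 31086718 to 47038045 reads, and 3 reads on a gene with 1 kb of exons corresponded to 0.0638 to 0.0965 RPKM. Granulosa markers were present in every library, with the inhibin gene Inha between 150 and 307 RPKM. Nr1h2, the gene of LXR beta, lay at 39.7 to 45.7 RPKM for WT, 2.85 to 3.57 for LXR DKO and 4.83 to 6.70 for transgenic libraries, with no overlap between the knockout groups. Nr1h3, the gene of LXR alpha, lay at 3.50 to 5.72 RPKM for WT, 0.713 to 1.08 for LXR DKO and 0.395 to 0.819 for transgenic libraries. Some libraries stood apart. The summed level of 14 oocyte markers was 903 RPKM in WT 1 and 474 in LXR DKO 1, against at most 52.0 in the others. The summed level of 8 erythroid markers was 9881 RPKM in WT 3, against at most 971 in the others. In bulk samples like these, fewer cells of a type and less RNA per cell cannot be told apart.

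Of the 34 genes, 32 had at least 1 RPKM in at least 3 libraries and were tested. The other two, Pax2 and Muc16, stayed at or below 0.218 and 0.173 RPKM. Pax2, a transcription factor gene of the developing reproductive duct, had 1 read each in WT 1 and WT 2 and at most 40 reads, in transgenic 3. Muc16, a very long membrane mucin gene, had 0 reads in WT 2 and LXR DKO 1 and at most 155 reads, in transgenic 3. Both genes had their highest value in transgenic 3, at levels too low for a comparison. A gene can pass this filter through the libraries in which it is high, so counts over the 32 describe the genes that passed and not the whole list.

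Ovgp1 (ENSMUSG00000074340, mm10 chromosome 3, 105973711 to 105987423, plus strand) varied widely between the WT libraries. It measured 52.2, 109 and 1125 RPKM for WT 1 to 3, 226, 655 and 477 RPKM for LXR DKO 1 to 3, and 1266, 1857 and 1679 RPKM for transgenic 1 to 3. All 3 transgenic libraries lay above all other libraries, and WT 3 lay next to them and above every LXR DKO library. The highest value was 35.5 times the lowest. Of the 32 tested genes, 26 followed Ovgp1, with a correlation of at least 0.7 by both measures described with the correlations, and Prom1, Esrp2 and Dsp were the 3 genes that were higher in every LXR DKO library than in every WT library. This same ordering was found in 13.1% of all 16422 tested genes.

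The promoters of these genes were examined because most of the genes moved together. RefSeq (GRCm38.p6) gave a promoter for 24 of the 34 genes, and the 250 bases before each RefSeq start were searched on both strands, with a gene counted where any of its starts had a match. RefSeq starts can differ from those of the GENCODE annotation used for gene positions here, and in 14 of the 24 genes at least 1 window reached into the GENCODE gene. For Ovgp1 the RefSeq start at 105973802 lies 91 bases inside the GENCODE gene. The marked CAGGTG, at 105973753 to 105973758, also lies inside that gene. The 5 shown are those of Ovgp1, of 3 genes that followed it in 3 roles (a secreted protein, an adhesion protein and a surface mucin), and of Cldn4, which did not follow it. Capitals mark CACCTG or its reverse complement, an E-box bound by ZEB and SNAI repressors of epithelial genes, and AACNGGTT or its reverse complement, a core of the Grainyhead-like factors.
Ovgp1 (chr3:105973552-105973801, plus strand): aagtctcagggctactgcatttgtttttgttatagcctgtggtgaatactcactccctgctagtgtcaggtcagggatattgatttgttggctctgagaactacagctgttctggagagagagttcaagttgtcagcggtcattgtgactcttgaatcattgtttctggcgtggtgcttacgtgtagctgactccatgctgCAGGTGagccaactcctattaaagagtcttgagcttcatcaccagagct
Ltf (chr9:111019042-111019291, plus strand): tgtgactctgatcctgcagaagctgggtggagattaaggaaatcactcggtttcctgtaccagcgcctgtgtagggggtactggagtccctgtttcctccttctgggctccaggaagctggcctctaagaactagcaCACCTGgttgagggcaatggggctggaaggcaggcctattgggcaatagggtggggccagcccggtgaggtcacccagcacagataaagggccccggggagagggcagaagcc
Epcam (chr17:87635729-87635978, plus strand): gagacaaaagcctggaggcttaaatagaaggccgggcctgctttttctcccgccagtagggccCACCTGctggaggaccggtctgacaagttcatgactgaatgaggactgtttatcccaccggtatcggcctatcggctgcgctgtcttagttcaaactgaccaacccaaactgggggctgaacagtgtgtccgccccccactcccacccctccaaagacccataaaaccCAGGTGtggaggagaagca
Muc1 (chr3:89228806-89229055, plus strand): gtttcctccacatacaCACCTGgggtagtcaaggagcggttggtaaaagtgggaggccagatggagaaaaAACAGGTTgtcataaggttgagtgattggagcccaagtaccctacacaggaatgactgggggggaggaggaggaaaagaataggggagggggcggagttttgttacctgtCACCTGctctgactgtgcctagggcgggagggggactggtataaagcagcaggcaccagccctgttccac
Cldn4 (chr5:134946935-134947184, minus strand): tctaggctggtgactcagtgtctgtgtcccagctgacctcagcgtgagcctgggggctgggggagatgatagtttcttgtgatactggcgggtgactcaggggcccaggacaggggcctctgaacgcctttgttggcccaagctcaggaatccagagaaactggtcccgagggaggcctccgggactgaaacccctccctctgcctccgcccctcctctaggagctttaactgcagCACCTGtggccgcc
CACCTG stood in 15 of the 24 promoters (62.5%), against 19.4% of 27025 genes with promoters of the same length. In 8 of the 24 genes a match lay outside the GENCODE gene. By likeness to Ovgp1 over the libraries, described with the correlations, it stood in 10 of 17 genes that followed, 2 of 3 that were mixed, 2 of 2 that did not follow (Cldn4 and Krt8) and 1 of 2 that were not tested. AACNGGTT stood in 4 of 24 (16.7%), namely Pax2, Muc1, Prom1 and Rab25, against 2.00% of all. Its strict form AACCGGTT stood in 0 of 24 against 0.137%, and the looser AACCNNTT in 5 (20.8%) against 9.79%. The ETS core AGGAAG, which Elf3 and Ehf could recognise, stood in 10 of 24 (41.7%) against 32.3%, and a second ETS core, CGGAAG, in 3 (12.5%) against 15.3%. The core bound by many nuclear receptors, GGTCA, stood in 11 of 24 (45.8%) against 38.4%, the estrogen response element, which holds it, in 0 against 0.0666%, and the orphan receptor core TGACCTTG in 0 against 1.51%. Several strings were in a smaller share of the 24 than of all. The SOX core stood in 1 of 24 (4.17%), Ovgp1, both as ATTGTT (10.9% of all) and as ACAATG (12.2%), the TATA box TATAAA in 1 (4.17%) against 14.3%, and the CCAAT box in 7 (29.2%) against 37.5%. The HNF1 core GTTAAT stood in 2 (8.33%) against 7.49%, the octamer ATTTGCAT in 1 (4.17%) against 1.81%, the GC box GGGGCGGGG in 5 (20.8%) against 11.8%, and the STAT core in 0 against 0.485%. These 17 letter strings were searched with the expression values known. A match describes letters in a window and not a bound site. Promoters of Lbp, Sox17, Ehf, Grhl2, Cdh1, Krt19, Msln, St14, Esrp1 and Esrp2 were not used here.

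To separate genes that follow Ovgp1 from those that do not, Pearson's r and Spearman's rho with Ovgp1 were taken over the 9 libraries on log2(RPKM + 1). A gene was said to follow where both were at least 0.7, not to follow where both were lower, and to be mixed otherwise. Libraries of a genotype share their genotype, and all values of a library share its depth and scale, so these are descriptions with n = 9. Of the 32 genes, 26 followed including Ovgp1 itself, 3 were mixed and 3 did not follow. Of all tested genes, 9.96% followed. The 25 followers other than Ovgp1 had an r of 0.81 to 0.99 and a rho of 0.77 to 0.98. By r, Lbp (0.99), Ltf (0.98), Epcam (0.98) and Muc1 (0.97) were closest, and they belong to 3 different roles. By rho, Lbp (0.98), Ltf and Ehf (0.97 each) were closest, with Muc1 at 0.93 and Epcam at 0.88. Without the 2 libraries farthest from the median of Ovgp1, WT 1 and WT 2, r stayed at 0.7 or above in 23 of the 26, with Esrp2 at 0.63, Msln at 0.64 and Prom1 at 0.39. By rho, Lcn2 (0.57), Emx2 and Cldn7 (0.61 each) and Krt19 and Spint2 (0.68 each) also fell under 0.7. On deviations from the genotype means, which remove the differences between genotypes, r stayed at 0.7 or above in 25 of the 26, with Cdh1 at 0.69. Their rho was under 0.7 in Cdh1 (0.42), Msln (0.50) and Emx2 and Spint1 (0.60 each). These deviations are pooled over the genotypes, and the largest for Ovgp1 was that of WT 3, at 2.59. Over the deviations of the 6 LXR DKO and transgenic libraries alone, r was at least 0.7 in 17 of the 26, counting Ovgp1. Among all tested genes the share was 11.2%. The 26 were picked by likeness to Ovgp1 over libraries that include these 6, so this contrast was partly set by the rule. Both r and rho reached 0.7 there in 5 of the 32 genes, which were Lbp, Ltf, Cftr, Cldn3 and Ovgp1 itself. The share of all tested genes with both is not given here. Lbp (0.93), Muc1 (0.93), Cftr (0.92) and Ltf (0.90) had the highest r there, while Msln (0.04), Cdh1 (0.11), Spint1 (0.32) and Emx2 (0.35) had the lowest of the 26. Ovgp1 was highest in transgenic 2 among the transgenic libraries, which held for 2 of the 26 genes, Ovgp1 and Lbp.

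**Figure D1:**
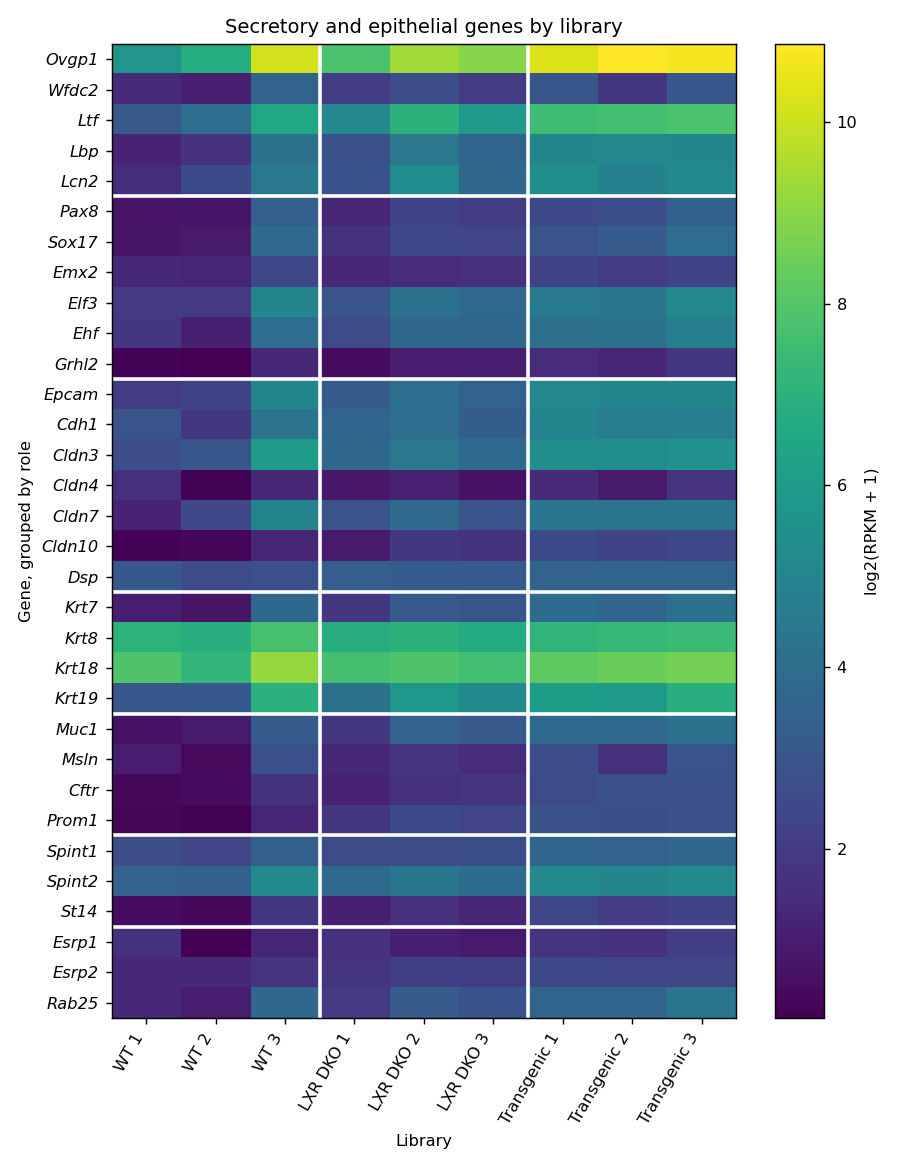
Level of the 32 tested genes, as log2(RPKM + 1), with 1 column per library and the genes in rows grouped by role (white lines part roles and genotypes). WT 3 is brighter than WT 1 and WT 2 in most rows and resembles the transgenic columns, as for Ovgp1 (1125 RPKM against 52.2 and 109), while Krt8 and Dsp vary little.

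**Figure D2:**
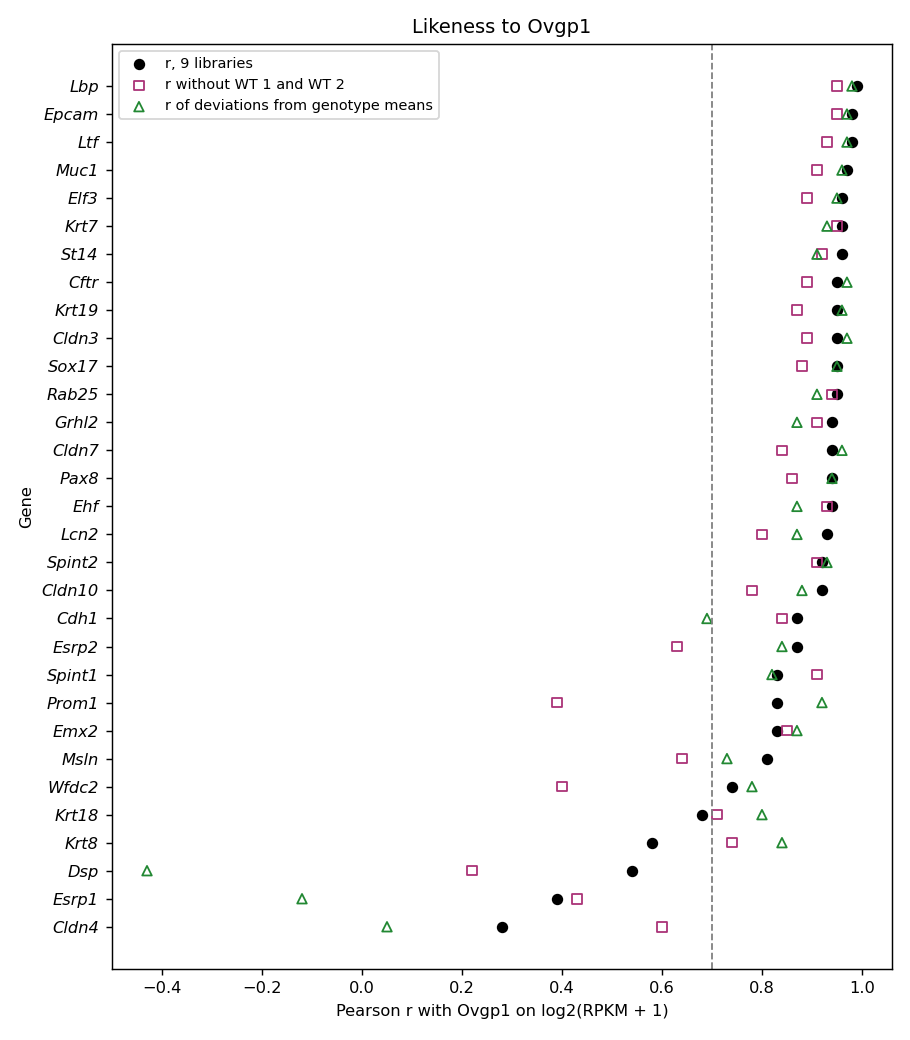
Pearson's r of each gene with Ovgp1 on log2(RPKM + 1), over all 9 libraries (dots), without WT 1 and WT 2 (squares) and on deviations from genotype means (triangles), with a dashed line at 0.7. Lbp and Ltf lie near 1 in all 3, Prom1 falls to 0.39 without WT 1 and WT 2, and Cldn4, Esrp1 and Dsp lie lowest.

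Among the secreted products, Ovgp1, Ltf, Lbp and Lcn2 were lowest in WT 1, next lowest in WT 2 and high in the transgenic libraries. Ltf, the iron-binding antimicrobial protein lactoferrin (chromosome 9, 111019271 to 111042767, plus strand), measured 7.78, 14.5 and 91.6 RPKM for WT 1 to 3, 34.97, 129 and 58.1 for LXR DKO 1 to 3 and 186, 198 and 228 for transgenic 1 to 3. Lbp, the binding protein of bacterial lipopolysaccharide, measured 1.22, 2.19 and 17.1 RPKM for WT, 5.96, 20.1 and 11.03 for LXR DKO and 31.9, 34.6 and 32.7 for transgenic libraries. In both genes the transgenic libraries did not overlap with any other library, and WT 3 lay among the LXR DKO libraries. Lcn2, which binds iron-carrying siderophores of bacteria, ranged from 1.92 RPKM in WT 1 to 44.0 in transgenic 1, and LXR DKO 2 at 40.3 overlapped with the transgenic libraries. Ltf and Lcn2 are also known from neutrophils. The neutrophil genes Ngp and S100a8, which did not pass the filter, were highest in LXR DKO 2, at 4.79 and 2.498 RPKM. The tested neutrophil gene S100a9 was also highest there, at 7.04 RPKM. Ltf and Lcn2 were highest in transgenic libraries, and so was the collagenase gene Mmp8, at 11.1 RPKM in transgenic 3. Of 10 neutrophil markers, 5 were tested and 1, Mmp8, followed Ovgp1. The summed level of the 10 was 15.8 to 28.1 RPKM in transgenic, 22.8 to 77.8 in WT and 39.99 to 55.7 in LXR DKO libraries. That sum was mostly Mmp9 in the WT libraries, in LXR DKO 1 and in LXR DKO 3. Mmp9 measured 52.7, 74.4 and 13.3 RPKM for WT 1 to 3, and 32.7, 16.9 and 41.1 for LXR DKO 1 to 3. In transgenic 1 to 3 it measured 11.45, 6.60 and 13.6 RPKM. In transgenic 2 the markers Ngp, S100a8 and Retnlg are listed at 0, and the other markers reached up to 6.60 RPKM (Mmp9). The part of neutrophil RNA in the values of Ltf and Lcn2 was not tested.

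Wfdc2, a secreted whey acidic protein domain gene known as the ovarian cancer marker HE4 (chromosome 2, 164562413 to 164568510, plus strand), was mixed (r = 0.74, rho = 0.58). It measured 1.65, 1.11 and 10.7 RPKM for WT 1 to 3, 3.07, 5.45 and 3.10 for LXR DKO 1 to 3 and 6.97, 2.54 and 7.37 for transgenic 1 to 3. Its highest value was in WT 3, and transgenic 2 lay below every LXR DKO library. Without transgenic 2 the values with Ovgp1 were r = 0.92 and rho = 0.90 (n = 8). Wfdc2 was closer to the mean log level of 15 motile cilia genes (r = 0.95) than to Ovgp1. The same held for other genes of the list, such as Krt19 (0.97 against 0.95), Emx2 (0.88 against 0.83) and Cldn4 (0.52 against 0.28).

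In transgenic 2 motile cilia genes lay further below the other transgenic libraries than most of the 32 genes did. Otherwise these 2 sets of genes were high and low in similar libraries. Ovgp1 was highest in this library, 0.35 above the mean of transgenic 1 and 3 on the log2(RPKM + 1) scale. All 15 tested motile cilia genes were lower there, by a median of -1.15 (range -1.47 to -0.65), with Foxj1, the master regulator of motile cilia, at 7.16 RPKM against 19.1 and 24.6. Of the 32 genes described here 27 were lower, against 49.4% of all tested genes, with a median of -0.21. Wfdc2 at -1.21, the mesothelin gene Msln at -1.19 and Cldn4 at -0.71 were the 3 of the 32 genes that lay within the range of the cilia genes, Cldn4 near its upper end. That range was not particular to cilia genes. Of the tested mesothelium and ovarian surface genes, Upk3b (-0.91), Igfbp5 (-0.69) and Aldh1a2 (-0.68) lay within it. Upk1b (-0.50), Wt1 (-0.47), Gpm6a (-0.28) and Lgr5 (-0.01) lay above it. Msln, a surface glycoprotein gene, measured 5.37, 1.99 and 6.29 RPKM for transgenic 1 to 3 and had r = 0.97 with the cilia genes against 0.81 with Ovgp1. This contrast rests on 1 library and was noticed in these data.

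**Figure D3:**
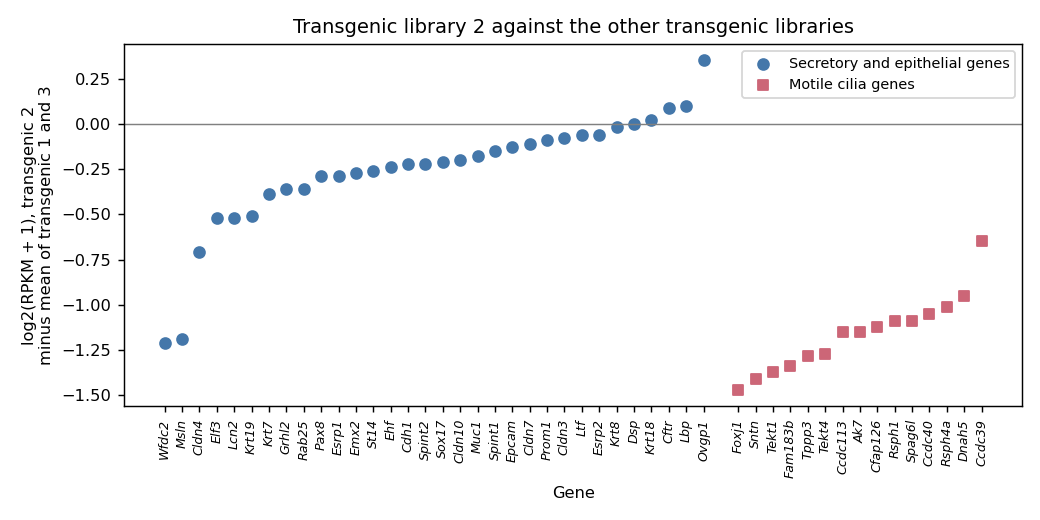
Difference between transgenic 2 and the mean of transgenic 1 and 3 on the log2(RPKM + 1) scale for the 32 tested genes (dots) and 15 motile cilia genes (squares), sorted within each set. Ovgp1 is the highest dot at 0.35, and Wfdc2, Msln and Cldn4 lie within the range of the cilia genes, which run from -1.47 to -0.65.

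All 6 tested transcription factor genes followed Ovgp1. Pax8, which specifies and marks the secretory lineage of the oviduct, ranged from 0.603 RPKM in WT 1 to 10.1 in transgenic 3, with 9.44 in WT 3. Sox17, which acts with Pax8 in this epithelium, ranged from 0.652 in WT 1 to 14.9 in transgenic 3, with 13.2 in WT 3. The ETS factor genes Elf3 and Ehf ranged from 2.84 to 34.6 and from 1.10 to 26.3 RPKM, and both were highest in transgenic 3. Grhl2, an activator of epithelial junction genes, ranged from 0.1004 to 2.63 RPKM. Emx2, a homeobox gene of the duct, had a narrower range, from 1.35 RPKM in WT 2 to 4.39 in WT 3, and its LXR DKO values of 1.46 to 2.11 overlapped with WT 1 at 1.61. In all 6 genes WT 3 lay above every LXR DKO library, an ordering found in 22 of the 32 genes and in 35.7% of all tested genes.

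Of the 7 adhesion and junction genes, 5 followed Ovgp1. Epcam, an adhesion molecule of simple epithelia, measured 2.99, 3.98 and 31.9 RPKM for WT, 8.20, 15.8 and 10.4 for LXR DKO and 34.2, 30.2 and 31.9 for transgenic libraries. WT 3 lay among the transgenic libraries and apart from WT 1 and WT 2. The tight junction genes Cldn3 and Cldn7 were highest in WT 3, at 63.0 and 30.2 RPKM, and lowest in WT 1, at 5.45 and 1.31. Cldn10, a pore-forming claudin gene, measured 0.175, 0.261 and 1.44 RPKM for WT, 0.902, 2.71 and 2.30 for LXR DKO and 4.83, 3.89 and 4.42 for transgenic libraries, so that every transgenic value lay above every other. Cdh1, the E-cadherin gene, measured 6.67, 2.64 and 17.6 RPKM for WT, 11.4, 14.9 and 8.87 for LXR DKO and 30.4, 24.2 and 26.5 for transgenic libraries. WT 1 thus held more Cdh1 than WT 2, which is the reverse of the order of Ovgp1 in these libraries.

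Cldn4, a claudin gene next to Cldn3 (chromosome 5, 134945119 to 134946934, minus strand), did not follow Ovgp1 (r = 0.28, rho = 0.33). It measured 2.08, 0.149 and 1.43 RPKM for WT 1 to 3, 0.840, 1.15 and 0.591 for LXR DKO 1 to 3 and 1.76, 0.868 and 2.40 for transgenic 1 to 3. The epithelial splicing factor gene Esrp1 (chromosome 4, 11331933 to 11386783, minus strand) did not follow either (r = 0.39, rho = 0.47), with 2.26, 0.0985 and 1.38 RPKM for WT, 2.13, 1.05 and 0.855 for LXR DKO and 2.48, 2.14 and 3.25 for transgenic libraries. Both genes were high in WT 1, where Ovgp1 was lowest, and at or below 0.149 RPKM in WT 2. WT 1 and, for Esrp1, LXR DKO 1 were also the libraries with oocyte markers, but these markers differed in how the 2 libraries compared. Similar in WT 1 and LXR DKO 1 were Gdf9 (126 and 136 RPKM), H1foo (256 and 234.8) and Oosp1 (36.48 and 50.32). Most of the other markers were far lower in LXR DKO 1, such as Padi6 (136.7 and 13.96 RPKM), Zp3 (107.7 and 2.902) and Zp2 (60.18 and 1.217). In WT 2 the level of Gdf9 was 0.505 RPKM. Without WT 1 the values were r = 0.80 and rho = 0.74 for Cldn4, and r = 0.74 and rho = 0.79 for Esrp1 (n = 8). Without WT 1 and LXR DKO 1 they were 0.83 and 0.64 for Cldn4 and 0.94 and 0.89 for Esrp1 (n = 7). WT 1 is also the library with the lowest Ovgp1, and without it 30 of the 32 genes met the rule. These omissions therefore do not single out oocyte RNA, and its part in these values was not tested.

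Dsp, the desmoplakin gene that ties desmosomes to keratin (chromosome 13, 38151294 to 38198577, plus strand), was mixed (r = 0.54, rho = 0.73) and had a narrow range, with a highest value 2.099 times the lowest. It measured 7.42, 5.04 and 5.79 RPKM for WT, 9.41, 8.47 and 7.74 for LXR DKO and 10.55, 10.55 and 10.58 for transgenic libraries. The 3 genotypes did not overlap, and WT 3 lay below every LXR DKO library, unlike in Ovgp1. That order was found in 3 of the 32 genes (Dsp, Prom1 and Esrp2) and in 35.3% of all tested genes. On deviations from the genotype means r was -0.43.

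The keratin genes divided into 2 pairs. Krt7 and Krt19, keratins of ducts and simple epithelia, followed Ovgp1 and ranged from 0.636 to 16.7 RPKM and from 7.36 to 126 RPKM. Krt8 (chromosome 15, 101996698 to 102004482, minus strand) measured 132, 117 and 211 RPKM for WT 1 to 3, 112, 129 and 105 for LXR DKO and 141, 155 and 176 for transgenic libraries. Its partner Krt18 measured 241, 151 and 576 RPKM for WT, 209, 237 and 193 for LXR DKO and 292, 344 and 396 for transgenic libraries. These 2 genes were abundant also in WT 1 and WT 2, where Ovgp1 was lowest. WT 3 held the most of both, and the transgenic libraries lay above the LXR DKO libraries. Krt8 did not follow Ovgp1 (r = 0.58, rho = 0.65) and Krt18 was mixed (r = 0.68, rho = 0.70). Without WT 1 both met the rule (Krt8 0.71 and 0.74, Krt18 0.81 and 0.81). On deviations from the genotype means r was 0.84 for Krt8 and 0.80 for Krt18. Both genes have many processed copies in the genome, so their values are uncertain.

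**Figure D4:**
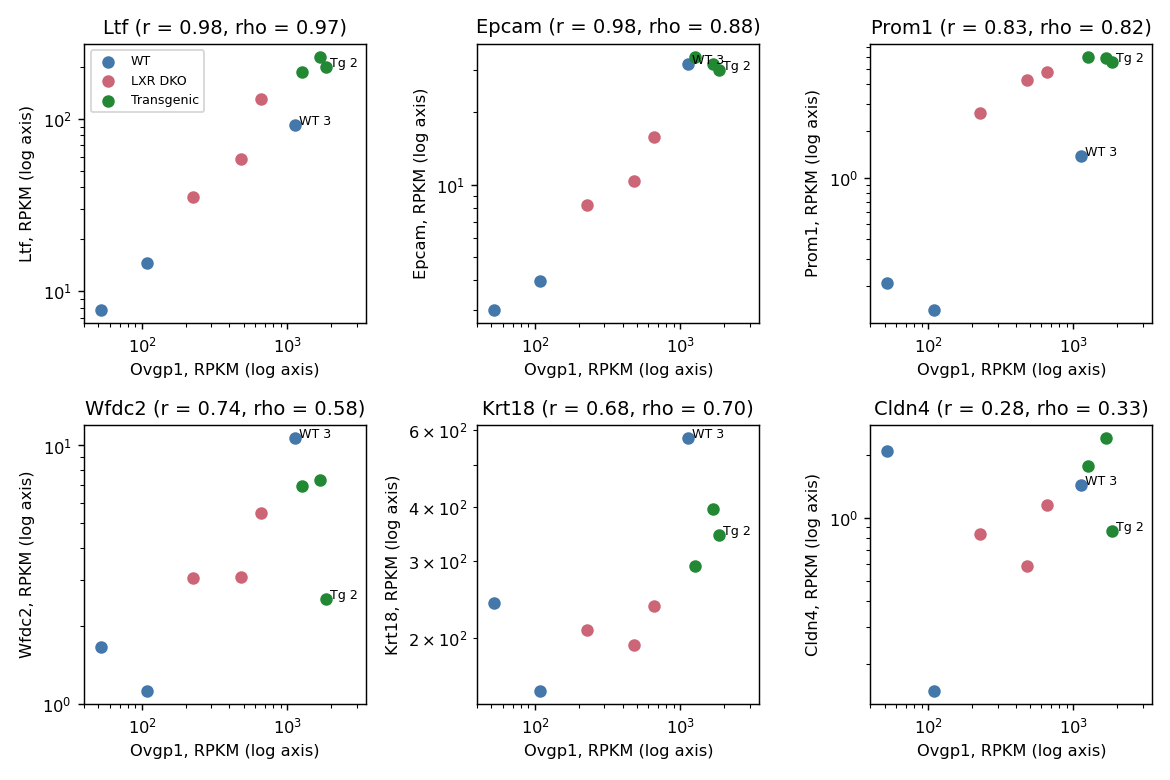
Level of 6 genes against Ovgp1 in the 9 libraries, in RPKM on log axes, with colours for genotypes and labels on WT 3 and transgenic 2 (Tg 2). Ltf and Epcam lie along 1 line through all genotypes, Prom1 of WT 3 (1.38 RPKM) falls below that line, Wfdc2 is low in transgenic 2 (2.54 RPKM), and Cldn4 is scattered.

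All 4 tested genes of surface glycoproteins and transport followed Ovgp1. Muc1, a membrane mucin of glandular surfaces, ranged from 0.6003 RPKM in WT 1 to 16.9 in transgenic 3. Cftr, a chloride channel of epithelial fluid secretion, measured 0.301, 0.362 and 2.23 RPKM for WT, 1.29, 2.20 and 2.34 for LXR DKO and 5.04, 5.86 and 5.89 for transgenic libraries, with no overlap between transgenic and the rest. Prom1, a cholesterol-binding protein of membrane protrusions (chromosome 5, 43993620 to 44102032, minus strand), measured 0.209, 0.139 and 1.38 RPKM for WT, 2.61, 4.82 and 4.27 for LXR DKO and 6.03, 5.56 and 5.94 for transgenic libraries. All WT values, including that of WT 3, lay below all LXR DKO values. Measured against Ovgp1, Prom1 was therefore low in WT 3.

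Among the protease genes, St14, which encodes the membrane protease matriptase, and its Kunitz inhibitors Spint1 and Spint2 all followed Ovgp1. St14 measured 0.387, 0.304 and 2.61 RPKM for WT, 1.14, 2.05 and 1.41 for LXR DKO and 4.36, 3.25 and 3.85 for transgenic libraries. Spint1 measured 5.41, 4.27 and 9.42 RPKM for WT, 5.06, 5.43 and 5.58 for LXR DKO and 11.3, 10.3 and 11.8 for transgenic libraries. In both the transgenic values lay above all others, and in Spint1 the LXR DKO values overlapped with WT 1. Spint2 ranged from 9.81 to 37.6 RPKM, with WT 3 highest. Of the splicing and trafficking genes, Rab25, a small GTPase of epithelial recycling, ranged from 0.936 to 18.8 RPKM and followed. Esrp2, the second epithelial splicing factor gene, measured 1.57, 1.52 and 2.31 RPKM for WT, 2.43, 3.39 and 3.31 for LXR DKO and 4.54, 4.12 and 4.16 for transgenic libraries, and the 3 genotypes did not overlap.

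Genotypes were compared with limma on log2(RPKM + 1) over all 16422 tested genes, with Benjamini-Hochberg adjustment over all of them and a threshold of 0.05. Fold changes are log2 values ± SE. The 3 comparisons share samples, so their results are not independent of each other. The question was how far these oviduct-type genes differed between genotypes beyond the spread of 3 libraries each.

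In LXR DKO against WT, 2 of the 32 genes rose and 0 fell, where 3.47% of all tested genes rose and 7.12% fell. Prom1 rose by 1.69 ± 0.28 (adjusted p = 0.0086), from 0.575 ± 0.696 to 3.90 ± 1.15 RPKM (SD, n = 3 libraries, limma). Esrp2 rose by 0.53 ± 0.14 (limma adjusted p = 0.0487), from 1.80 ± 0.442 to 3.04 ± 0.529 RPKM. The call of Prom1 held without any single library (adjusted p up to 0.0433), and that of Esrp2 held only without WT 3 or without LXR DKO 1 (up to 0.162 in the other omissions). Ovgp1 differed by 1.15 ± 0.96 and did not pass (limma adjusted p = 0.5), with means of 429 ± 604 RPKM for WT and 453 ± 216 in LXR DKO (SD, n = 3), and by 0.24 without WT 1 (0.905). The median difference over the 32 genes was 0.46, against 0.017 over all tested genes.

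This comparison rested on WT 3. Without it 20 of the 32 genes rose and 0 fell, where 5.55% of all tested genes rose and 7.48% fell, and the median of the 32 was 1.21 against 0.005 over all genes. Ovgp1 then differed by 2.44 ± 0.45 (limma adjusted p = 0.0137), Ltf by 2.48 ± 0.47 (0.0153), Lbp by 2.18 ± 0.38 (0.0119) and Epcam by 1.44 ± 0.23 (0.00788). WT was then left with WT 1 and WT 2 alone, in which most of these genes were lowest. Leaving out the WT library with high values raised the differences and narrowed the spread, so these p-values describe that choice of libraries. The genes that did not pass then were Wfdc2, Lcn2, Pax8, Emx2, Grhl2, Cldn4, Dsp, Krt8, Krt18, Msln, Spint1 and Esrp1. Every LXR DKO library lay above WT 1 and WT 2 in 26 of the 32 genes, against 24.3% of all tested genes. WT 3 held the summed erythroid level given above and also the highest motile cilia level, with a sum of 453 RPKM over 18 cilia genes against 54.2 in WT 1 and 46.4 in WT 2. Whether WT 3 or the other two WT libraries are nearer to usual wild type samples cannot be told apart with 3 libraries.

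In transgenic against LXR DKO, 0 of the 32 genes passed in either direction, where 0.0548% of all tested genes rose and 0.0609% fell (limma). With limma-voom on reads worked back from the RPKM values, 0 were called as well. All 32 differences were above 0, with a median of 1.04 against 0.013 over all tested genes, and in 28 of 32 each transgenic library exceeded all LXR DKO libraries, against 11.3% of all tested genes. The 4 genes with overlap were Wfdc2, Lcn2, Cldn4 and Msln. Ovgp1 differed by 1.93 ± 0.96 (limma adjusted p = 0.66), with means of 1601 ± 303 RPKM in transgenic and 453 ± 216 in LXR DKO (SD, n = 3). The spread in this fit is shared with WT, where the libraries differed most. Without WT 3, which is in neither group, 6 genes rose and 0 fell, where 0.597% of all tested genes rose and 0.317% fell. These were Spint1 (0.93 ± 0.10, adjusted p = 0.00837), Cldn3 (1.43 ± 0.17, 0.0117), Spint2 (1.14 ± 0.13, 0.0117), Cftr (1.18 ± 0.15, 0.0185), Epcam (1.45 ± 0.20, 0.0218) and St14 (0.94 ± 0.16, 0.042, all limma). With only these 2 genotypes in the fit, 6 genes also rose, where 51 of the 16422 tested genes rose and 42 fell. The matriptase gene and both of its inhibitor genes were thus among the 6 genes without WT 3, while Ovgp1 itself did not pass (1.93 ± 0.40, limma adjusted p = 0.0707).

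In transgenic against WT, 10 of the 32 genes rose and 0 fell, where 5.15% of all tested genes rose and 6.72% fell. They were spread over 5 roles. The secreted products Ltf and Lbp rose by 3.13 ± 0.79 and 2.75 ± 0.71 (limma adjusted p = 0.0372 and 0.0397). The transport and surface genes Prom1 and Cftr rose by 2.20 ± 0.28 and 1.88 ± 0.32 (limma adjusted p = 0.00299 and 0.0106). The junction genes Cldn10, Cdh1 and Dsp rose by 1.81 ± 0.32, 1.80 ± 0.49 and 0.72 ± 0.13 (limma adjusted p = 0.0117, 0.0466 and 0.0113). St14 and Spint1 rose by 1.36 ± 0.35 and 0.78 ± 0.21 (0.0414 and 0.0477, limma), and Esrp2 by 0.92 ± 0.14 (0.00701). None of the 6 transcription factor genes and none of the 4 keratin genes passed, and Ovgp1, at 3.08 ± 0.96, did not either (limma adjusted p = 0.0697), except with quantile normalization (3.27, 0.0489). Without WT 1 its difference was 2.17. The median over the 32 genes was 1.55 against 0.015 over all genes.

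Among the 10 genes, the calls of Prom1, Cftr, Cldn10, Dsp and Esrp2 held without any single library. Those of Cdh1, St14 and Spint1 were lost on leaving out any library other than WT 3 (limma adjusted p up to 0.142). That of Lbp was lost in 7 omissions, and held without WT 3 or LXR DKO 1 (up to 0.113). That of Ltf was lost in 6, and held without WT 3, LXR DKO 1 or LXR DKO 2 (up to 0.114). Without WT 3, 29 of the 32 genes rose and 0 fell, where 12.7% of all tested genes rose and 8.99% fell, and the median was 2.35 against -0.005 over all genes. Ovgp1 then differed by 4.37 ± 0.45 (limma adjusted p = 0.000898), and the 3 genes that did not pass were Cldn4, Esrp1 and Krt8. Here too WT was left with WT 1 and WT 2 alone. Every transgenic library lay above every WT library in 14 of the 32 genes, against 16.8% of all tested genes, and above WT 1 and WT 2 in 30, against 28.7%.

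**Figure D5:**
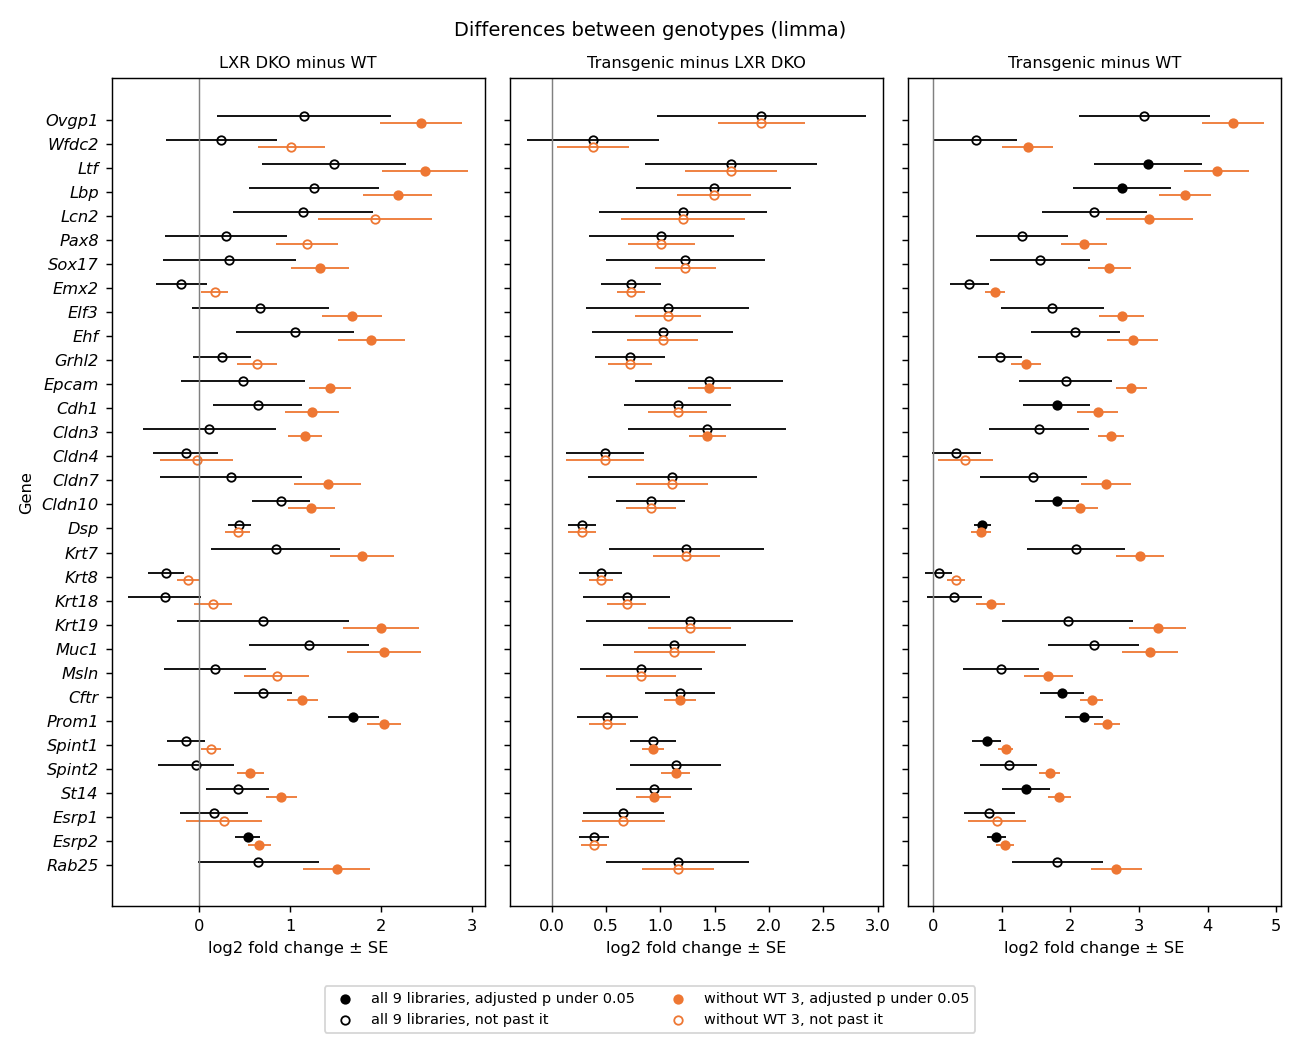
Log2 fold change ± SE from limma for the 32 tested genes in the 3 comparisons, with all 9 libraries (black) and without WT 3 (orange), filled where the adjusted p is under 0.05. In transgenic minus WT the filled points go from 10 to 29 genes when WT 3 is left out, and Cldn4, Esrp1 and Krt8 remain unfilled.

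Other epithelial genes were read from 3 lists. Of 21 tested junction genes outside the 34, 6 rose and 0 fell in transgenic against WT, and 9 followed Ovgp1, where 5.15% and 6.72% of all tested genes rose and fell and 9.96% followed. In LXR DKO against WT, where 3.47% of all tested genes rose and 7.12% fell, 2 of the 21 rose, the desmosomal cadherin genes Dsg2 (1.29 ± 0.10, limma adjusted p = 0.000239) and Dsc2 (0.77 ± 0.12, 0.00609), and 1 fell, the plakoglobin gene Jup (-0.48 ± 0.10, 0.0201). The calls of Dsg2 and Dsc2 held without any single library, while that of Jup was gone when WT 1, LXR DKO 2 or LXR DKO 3 was left out (up to 0.0733, limma). Dsg2 measured 3.12, 3.10 and 3.66 RPKM for WT, 9.21, 8.68 and 10.6 for LXR DKO and 8.81, 8.64 and 7.84 for transgenic libraries. WT 3 was not set apart in it, and it did not follow Ovgp1 (r = 0.57, rho = 0.22). Dsc2, likewise without a shift in WT 3, lay at 0.814 to 1.12 RPKM for WT and 2.20 to 2.89 in the other 2 genotypes.

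Of 13 tested epithelial regulators outside the 34, 5 rose and 0 fell in transgenic against WT, and 11 followed Ovgp1. The membrane protease gene Tmprss2 rose by 1.53 ± 0.26 (limma adjusted p = 0.00995) and the serine protease gene Hpn by 0.86 ± 0.22 (0.0404), or by 2.11 with a pseudocount of 0.1 (0.061). The call of Tmprss2 held without any single library, and that of Hpn held without WT 3 but was lost without any other single library (up to 0.121). Of 13 tested mucosal secretory genes, 3 rose and 0 fell, and 7 followed Ovgp1. These were the water channel gene Aqp5 (1.46 ± 0.35, limma adjusted p = 0.0333), the ceruloplasmin gene Cp (1.31 ± 0.31, 0.0305) and Pigr, the transporter of mucosal antibodies (0.98 ± 0.26, 0.0418). Each of these 3 calls was lost without WT 1, WT 2 or any transgenic library, and that of Pigr also without LXR DKO 3 (limma adjusted p up to 0.126). Without WT 3 the counts that rose were 12 of 21 junction genes, 12 of 13 regulators and 8 of 13 secretory genes, where 12.7% of all tested genes rose.

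Other cell types were read from marker lists. Of 15 tested motile cilia genes, 12 followed Ovgp1 and 1, the dynein gene Dnah5, rose in transgenic against WT (1.56 ± 0.36, limma adjusted p = 0.0298). That call was lost without WT 1, WT 2, transgenic 1 or transgenic 3 (up to 0.0912), and all 15 rose without WT 3. Of all tested genes, 9.96% followed Ovgp1, and 5.15% rose in transgenic against WT, or 12.7% without WT 3. The summed level of the 18 cilia genes was 46.4 to 453 RPKM for WT, 100 to 235 for LXR DKO and 156 to 420 for transgenic libraries. Of 7 tested mesothelium and ovarian surface genes, 3 followed Ovgp1, and the sum of the 10 listed was 6.76 to 18.2 RPKM for WT, 7.16 to 11.7 for LXR DKO and 13.3 to 27.1 for transgenic libraries. None of 11 tested granulosa genes followed Ovgp1, and 3 of them fell and 0 rose in both LXR DKO and transgenic libraries against WT, where 7.12% and 6.72% of all tested genes fell. Their summed level was 870 to 974 RPKM for WT, 521 to 797 for LXR DKO and 572 to 690 for transgenic libraries. Of 9 tested macrophage genes, 0 followed Ovgp1 and 5 fell in transgenic against WT, with a sum of 170 to 352 RPKM for WT, 201 to 248.5 for LXR DKO and 79.3 to 112 for transgenic libraries. Of 6 tested stroma and smooth muscle genes, the collagen-binding proteoglycan gene Dcn and the smooth muscle gene Tagln followed Ovgp1, the smooth muscle actin gene Acta2 was mixed and 3 did not follow. The sum of the 10 listed was 13.8, 9.61 and 81.5 RPKM for WT 1 to 3, 12.8, 77.1 and 9.74 for LXR DKO 1 to 3 and 73.1, 52.3 and 30.1 for transgenic 1 to 3. It was thus high in WT 3, LXR DKO 2 and the transgenic libraries, and 0 of the 6 passed in any of the 3 comparisons. The part of these cell types in the differences of the 34 genes was not tested.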

How the data were processed

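The deposited file is a matrix of RPKM values made by the authors, with 1 column per library. Per the submitters' processing notes, the build was mm10 and the tools were DESeq2 1.2.8, HTSeq 0.5.4p5, HISAT2 2.1.0 and cutadapt, with no roles stated. Not given in the sources used here are the annotation release, the strand setting and the treatment of reads with several matches. Genes that overlap others are therefore uncertain: Ovgp1 shares 1023 exon bases with Gm42890 on the same strand, and Cftr, Cldn3, Dsp, Elf3, Emx2, Esrp1, Esrp2, Grhl2, Krt7, Krt8, Pax8, Prom1 and Sox17 overlap others on the opposite strand. With GENCODE M21 exon lengths, 98.1% of 37863 genes gave whole reads in all libraries (within 0.02 reads). Transgenic column names, 1 letter off the labels, were matched by TG and number. Columns not used numbered 0.

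Values were tested as log2(RPKM + 1) in limma 3.58.1 (R 4.3.3), with a variance trend and genotype as factor, after a filter of 1 RPKM in 3 libraries. The pseudocount of 1 understates changes of low genes. The script was tested on simulated data. Library-level values were named for Ovgp1, genes past the threshold and genes not following Ovgp1, with ranges for most others; a few further genes were given by library after their values were seen. Beyond these, the 10 tested genes most like Ovgp1 and the list genes with the largest changes were named. Alternatives were another pseudocount, 2 filters, quantile normalization, 2 genotypes only, a replicate block, each library left out, WT 1 and LXR DKO 1 left out, and limma-voom. A few genes of the other epithelial lists are not reported here and are left out of the counts for those lists. Members and lists were chosen with earlier results of these data known.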

Additional observations from a re-analysis of the deposited data

How the results depend on the processing

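No gene of the 34 was called lower. Single-gene values under the alternatives were taken for Ovgp1, for the called genes of the 34 and for called genes named from the other lists. Of these 397 values, 0 reversed (273 kept their side of the threshold, 121 lost their call and 3, all of Ovgp1, gained one). For LXR DKO minus WT, 2 genes were called higher, against 1 with no filter, 1 with only the 2 genotypes compared and 1 with the replicate number as a block. Leaving out 1 library each gave 1 to 20. For transgenic minus LXR DKO, 0 were called, against 6 with only the 2 genotypes compared and 0 to 6 with 1 library left out. For transgenic minus WT, 10 were called, against 5 with no filter, 5 with only the 2 genotypes, 5 without WT 1 and LXR DKO 1 together, 11 with the replicate block, and 5 to 29 with 1 library left out. The highest of each range was without WT 3. The deviations of same-numbered libraries had an r of -0.29 to 0.67, highest for WT 1 with LXR DKO 1. Most of these pairs were not above 0.1, so the numbers were not taken to pair the samples.

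The 26 followers were 25 to 30 with 1 library left out, 23 without WT 1 and LXR DKO 1, 20 without WT 1 and WT 2, 24 on deviations from genotype means, and 5 on those of the LXR DKO and transgenic libraries alone (an alternative chosen after seeing the data). Over all genes, LXR DKO minus WT called 570 higher and 1169 lower, against 313 and 719 with no filter, 226 and 581 with 2 genotypes and 357 higher with the block. Transgenic minus WT called 846 and 1103, against 451 and 645 with no filter, 503 higher with 2 genotypes, and 2078 and 1477 without WT 3. Transgenic minus LXR DKO called 9 and 10, against 51 and 42 with 2 genotypes and 98 and 52 without WT 3. The cause of these shifts was not tested. Levels under about 0.1 RPKM rest on few reads, as for Pax2 and Muc16.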

Other observations

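The 10 tested genes with the highest mean of r and rho with Ovgp1 over the 9 libraries were mostly outside the 34 genes. The core 2 O-glycan enzyme gene Gcnt3 (r = 0.990, rho = 1.000) stood at 0.364, 0.873 and 5.08 RPKM for WT, 1.30, 4.53 and 2.66 for LXR DKO and 6.14, 7.88 and 7.48 for transgenic libraries. It put the 9 libraries in the same order as Ovgp1, with transgenic 2 highest. So did the glutamate transporter gene Slc1a1, the pseudogene Gm12872 and the nucleoside diphosphate kinase gene Nme6. Plet1, a surface glycoprotein gene (r = 0.994), ranged from 7.66 RPKM in WT 1 to 158 in transgenic 3. Agr2, a disulfide isomerase gene that aids mucin folding, ranged from 1.27 to 57.5 RPKM, with transgenic 2 highest. The peptide transporter gene Slc15a2 and the transcription factor gene Sox7 had rho = 0.983, and Lbp was the 1 member of the list among the 10.

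Wdr77, a methylosome subunit gene, was also among the 10 (r = 0.990, rho = 0.983), with a small range of 7.93 RPKM in WT 1 to 18.7 in transgenic 3. It lies on chromosome 3, 105959369 to 105970037, plus strand, and ends 3673 bases before Ovgp1. Gm42890, a processed transcript annotated from 105959503 to 105984600 on the same strand, spans the gap and part of Ovgp1 and measured 1.00 to 8.22 RPKM.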
